A study of Saccharomyces cerevisiae with 4 samples.

Results

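Expression of the genes of fatty acid oxidation and of peroxisome biogenesis was compared between the wine yeast 59A and its sch9-deleted mutant. The genes were taken by their symbol in the array annotation, either PEX followed by a number or one of 19 listed names. This rule uses no measured value, but it was set with earlier results of these data known. The rule found 36 genes, each with its own probe, among 6227 probes. They were 18 PEX genes and 18 genes of oxidation, fatty acid entry, the carnitine shuttle, acetyl-CoA synthesis and regulation. Another 11 PEX names that were looked up matched none of the array symbols and were not analysed here. *PCS60* was on the array under its older symbol *FAT2*. It is described beside the members and not counted with them.

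59A is a haploid strain derived from a spore of the commercial wine yeast EC1118. In the mutant the *SCH9* open reading frame was replaced by a KanMX cassette, and how many independent clones were used is not stated in the labels or methods. There were 2 arrays of each strain, which the labels call biological replicates. By the methods, RNA of both strains was taken at the same amount of carbon dioxide produced, not at a set time. Per the labels all 4 cultures were anaerobic fermentations at 24°C with 230 g/L of sugars, 142 mg/L of assimilable nitrogen and 5% of the lipid factors ergosterol and oleic acid, although the methods also name a medium with less nitrogen.

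Sch9p is a protein kinase that relays nutrient signals from the TOR complex. In yeast, beta-oxidation of fatty acids takes place only in peroxisomes. Acyl-CoA enters or is made in the organelle, is shortened by an oxidase that consumes oxygen and releases hydrogen peroxide, and yields acetyl-CoA, which leaves as acetylcarnitine or through the glyoxylate cycle. These genes are repressed by glucose and induced by oleate. The PEX genes encode peroxins, which bring enzymes into the organelle, form its membrane and set its number and size.

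The probe of *SCH9* read 8.72 and 8.67 (log2 intensity) on the 59A arrays and 5.81 and 5.67 on the arrays of the deleted strain, as the labels have it. All log2 values lay between 5.47 and 15.95, with array medians from 8.52 to 8.53. None of the 36 genes lay in the lowest 10% of the values of an array, the lowest being *SPS19* at the 14.2 percentile. Equal amounts of RNA were labelled, and a change in the share of a transcript cannot be told apart from a change in RNA per cell. With 4 arrays in all, precision is limited by their number.

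With all 4 arrays, most members outside the PEX group were higher in the sch9 mutant by the test used here. Of the 7 oxidation enzymes 3 were higher and 4 did not pass, and most PEX genes did not pass either. A gene was counted as changed at an adjusted p under 0.05 in limma, with log FC as the log2 value of the mutant minus that of the wild type. Of the 18 genes that are not peroxins, 10 rose, 1 fell and 7 did not pass, with a median log FC of 0.41. Among the 18 PEX genes 1 rose, 2 fell and 15 did not pass, with a median of 0.00. Over all 6226 features 14.6% were higher, 12.1% were lower and 4561 features did not pass by the same criterion, with a median of -0.01. The share of higher genes was thus 55.6% outside the PEX group and 5.6% within it. When mutant replicate 1 or 2 was left out, 5 or 3 members were higher, 0 of them PEX genes, and 310 or 179 of all features. When 59A replicate 1 or 2 was left out, 12 or 17 members were higher, among them 2 or 3 PEX genes, and 1092 or 1313 of all features. With the fold threshold of the study, a log FC above 1, 3 members were up-regulated, *CRC1*, *FOX2* and *ACS1*, against 2.18% of all features. By the same threshold downwards 0 members were down-regulated, against 102 of all 6226 features, also a small share.

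**Figure D1:**
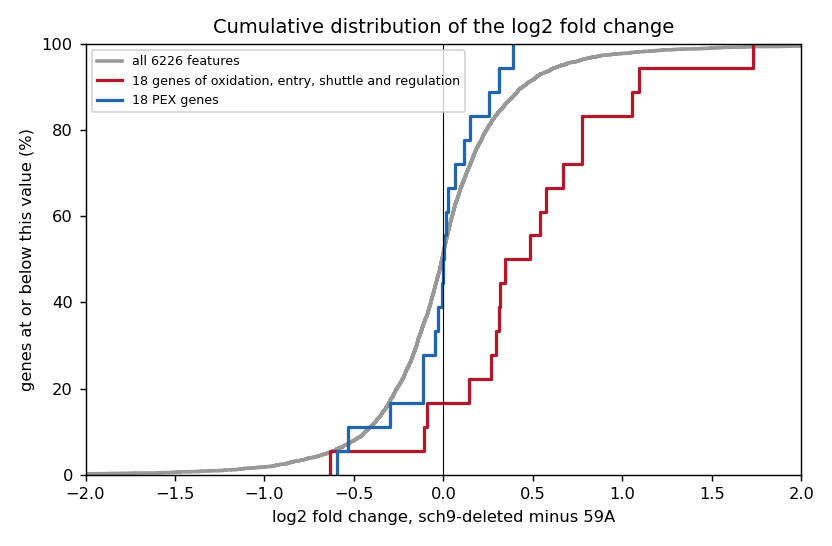
Cumulative share of genes (vertical axis, percent) at or below each log2 fold change of the sch9-deleted strain minus 59A (horizontal axis) for all 6226 features, the 18 PEX genes and the 18 other members. The curve of the other members lies to the right, with a median of 0.41, while that of the PEX genes crosses the middle at 0.00.

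The arrays of the strains were apart in all 18 members outside the PEX group. In 15 of them both mutant arrays lay above both wild-type arrays and in 3 below, compared with 33.7% and 35.8% of all features. Of the PEX genes 4 were apart upwards and 5 downwards. In 9 of the 18 the arrays of the strains overlapped, against 30.5% of all features.

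**Figure D2:**
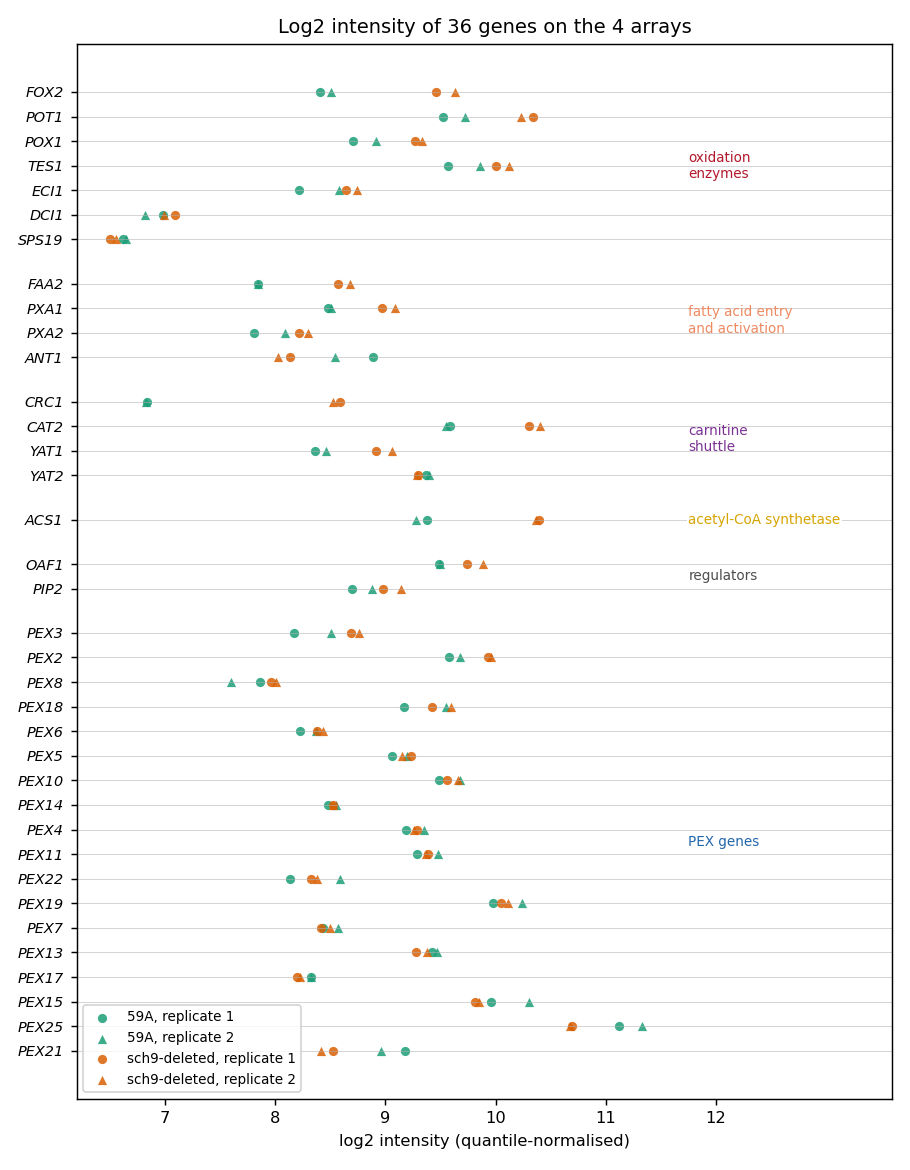
Log2 intensity (horizontal axis) of each of the 36 genes on the 4 arrays, grouped by role, with circles for replicate 1 and triangles for replicate 2 of 59A (green) and of the sch9-deleted strain (orange). The strains are apart in every gene outside the PEX group and overlap in 9 of the 18 PEX genes, against 30.5% of all features.

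Of the 7 oxidation enzymes 3 rose, those of the beta-oxidation spiral itself, and 4 accessory enzymes did not pass, while 14.6% of all features rose. Whether the 3 and the 4 differ was not tested. *FOX2* encodes the multifunctional enzyme with hydratase and dehydrogenase activities. It had log2 intensities of 8.41 and 8.51 in the wild type and of 9.46 and 9.63 in the mutant. Both mutant arrays were higher by at least 0.95, which gave a log FC of 1.09 (standard error, SE, 0.09, adjusted p = 0.00266), a 2.13-fold rise. *POT1*, the 3-ketoacyl-CoA thiolase of the last step, went from 9.52 and 9.72 to 10.34 and 10.23. Its log FC was 0.67 (SE 0.10, adjusted p = 0.0107). *POX1* encodes acyl-CoA oxidase, the enzyme of the first step. Its values were 8.71 and 8.92 in 59A and 9.27 and 9.33 in the mutant, with a log FC of 0.48 (SE 0.10, adjusted p = 0.0235). The 3 enzymes of the spiral thus moved the same way, by 1.40-fold in *POX1* to 2.13-fold in *FOX2*. This direction was not particular to them. Both mutant arrays lay above both wild-type arrays in 6 of the 7 oxidation enzymes, against 33.7% of all features.

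Accessory enzymes handle unsaturated acyl chains or release the fatty acid. *TES1*, an acyl-CoA thioesterase, had 9.57 and 9.86 in 59A and 10 and 10.12 in the mutant, with a log FC of 0.34 (adjusted p = 0.0892). For *ECI1*, an enoyl-CoA isomerase, the values were 8.22 and 8.58 against 8.64 and 8.74, a log FC of 0.29 (adjusted p = 0.164). In both genes the gap between the wild-type replicates was about as wide as the difference between strains, 0.29 in *TES1* and 0.36 in *ECI1*. *DCI1*, a homologue of *ECI1*, had 6.98 and 6.82 against 7.09 and 6.99, a log FC of 0.14 with a 95% interval from -0.08 to 0.37. The dienoyl-CoA reductase gene *SPS19*, known from sporulating cells, was at 6.62 and 6.65 against 6.50 and 6.56, a log FC of -0.11 (interval -0.29 to 0.08). The interval of *POX1*, from 0.24 to 0.73, overlapped that of *DCI1* but not that of *SPS19*, and the differences between genes were not tested. *DCI1* and *SPS19* were also dim, between the 14.2 and the 20.7 percentile of their arrays. Without replicate 1 or replicate 2 of the mutant *POX1* (adjusted p = 0.108 and 0.191) and *POT1* (0.0722 and 0.0745) did not pass, and without replicate 2 of 59A *TES1* (log FC 0.49, adjusted p = 0.00725) and *ECI1* (0.47, adjusted p = 0.0071) did.

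Entry and activation of fatty acids went both ways. *FAA2* encodes the acyl-CoA synthetase inside peroxisomes, which activates medium-chain fatty acids. It stood at 7.85 on both wild-type arrays and at 8.57 and 8.68 in the mutant, a log FC of 0.78 (SE 0.08, adjusted p = 0.00394). *PXA1* and *PXA2* encode the subunits of the ABC transporter that carries long-chain acyl units inwards. *PXA1* had 8.48 and 8.51 in 59A and 8.97 and 9.09 in the mutant, a log FC of 0.54 (SE 0.08, adjusted p = 0.0105). Its partner *PXA2* had 7.81 and 8.09 against 8.22 and 8.30, a log FC of 0.31 (adjusted p = 0.102), with a gap of 0.28 between the wild-type arrays. The exception in direction was *ANT1*, the carrier that brings ATP for *FAA2* into the organelle. It fell from 8.89 and 8.54 to 8.14 and 8.03, a log FC of -0.63 (SE 0.13, adjusted p = 0.0263). The probe of *PCS60*, a peroxisomal oxalyl-CoA synthetase listed as *FAT2*, had 7.63 and 7.67 against 7.87 and 7.75, a log FC of 0.16 (adjusted p = 0.195). Without replicate 1 or 2 of the mutant *PXA1* (adjusted p = 0.0588 and 0.135) and *ANT1* (0.0868 and 0.173) did not pass, nor did *FAA2* without replicate 2 (0.0549), and *PXA2* passed without replicate 2 of 59A (log FC 0.45, adjusted p = 0.00741).

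The carnitine shuttle moves acetyl units between compartments as acetylcarnitine. Of its 4 genes 3 rose and 1 did not pass, while 14.6% of all features rose. *CRC1*, the carnitine carrier of the inner mitochondrial membrane, changed most among all 36 genes. Its log2 intensities were 6.84 and 6.83 in 59A and 8.59 and 8.53 in the mutant. Replicates of a strain differed by no more than 0.06, while the strains lay at least 1.69 apart, and the log FC was 1.73 (SE 0.07, adjusted p = 3.1e-04), a 3.32-fold rise. The other 3 genes encode carnitine acetyltransferases, each placed differently in the cell. *CAT2*, the enzyme of peroxisomes and of the mitochondrial matrix, went from 9.59 and 9.55 to 10.30 and 10.40, a log FC of 0.78 (SE 0.08, adjusted p = 0.004). *YAT1*, on the outer mitochondrial membrane, had 8.36 and 8.46 against 8.92 and 9.06, a log FC of 0.58 (SE 0.09, adjusted p = 0.0115). *YAT2*, which is found in the cytosol, had 9.37 and 9.40 in 59A and 9.30 and 9.29 in the mutant, a log FC of -0.09 (adjusted p = 0.378). The 95% interval of *YAT2*, from -0.27 to 0.09, did not overlap those of *CAT2*, from 0.58 to 0.97, and of *YAT1*, from 0.36 to 0.79. The difference between these genes was not tested. *CAT2* did not pass without replicate 2 of the mutant (adjusted p = 0.0549), nor did *YAT1* without replicate 1 (0.0529) or replicate 2 (0.129).

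*ACS1*, the acetyl-CoA synthetase of respiring and non-fermenting cells, activates free acetate. It had 9.38 and 9.28 in 59A and 10.39 and 10.37 in the mutant, higher by at least 0.99, and a log FC of 1.05 (SE 0.08, adjusted p = 0.00152), a 2.07-fold rise. *ACS1* lies beside *PEX22* on its chromosome in the RefSeq annotation. *PEX22* encodes the membrane anchor of a ubiquitin-conjugating enzyme and had 8.14 and 8.59 against 8.33 and 8.38, a log FC of -0.01 (interval -0.40 to 0.38). The neighbouring genes therefore had separate values, with overlapping strains in *PEX22*.

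*OAF1* and *PIP2* encode the transcription factors that pair on oleate response elements. *OAF1* had 9.49 and 9.50 in 59A and 9.74 and 9.89 in the mutant, a log FC of 0.32 (SE 0.08, adjusted p = 0.0452). *PIP2* had 8.70 and 8.88 against 8.98 and 9.14, a log FC of 0.27 (SE 0.10, adjusted p = 0.106). Both lay higher on both mutant arrays, by gaps of 0.24 and 0.10, and only *OAF1* passed. *OAF1* did not pass with an intensity trend (adjusted p = 0.0554), with median centring (0.0515) or without replicate 1 (0.134) or 2 (0.378) of the mutant, and *PIP2* passed without replicate 2 of 59A (log FC 0.36, adjusted p = 0.0269).

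**Figure D3:**
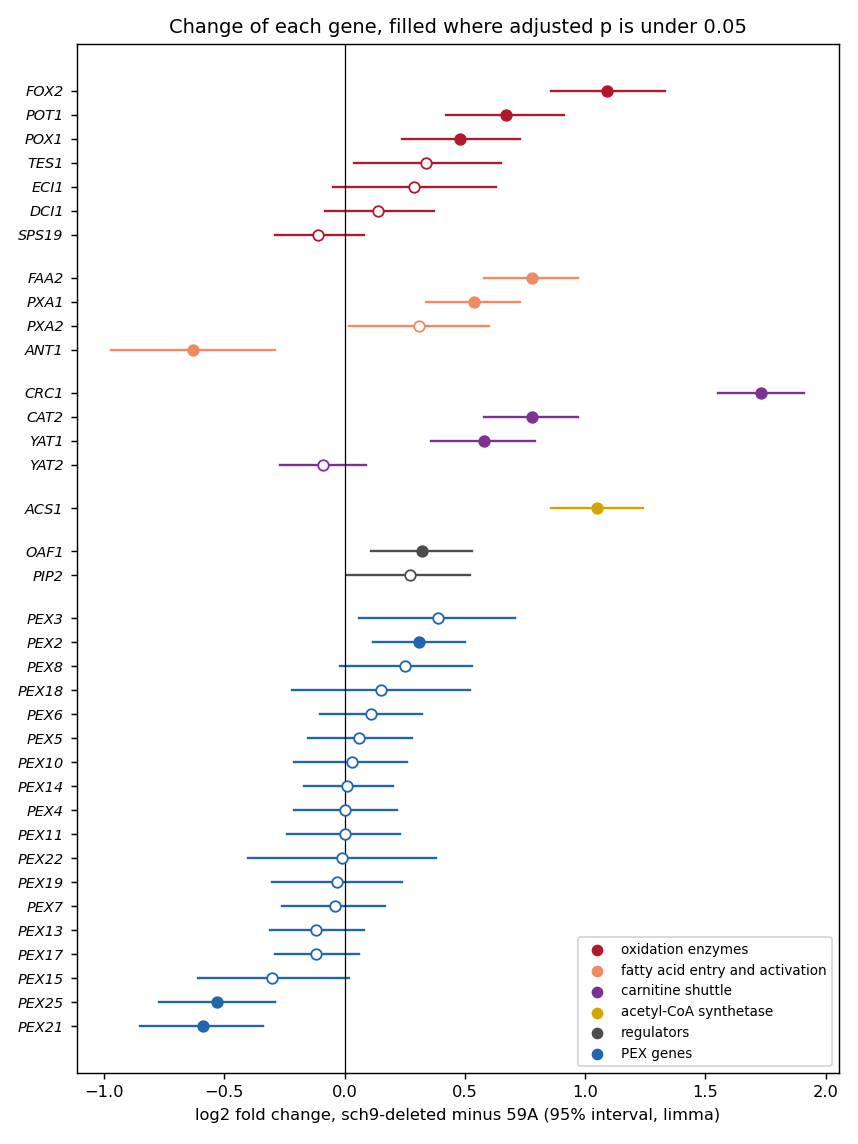
Log2 fold change of the sch9-deleted strain minus 59A (horizontal axis) for each gene by role, with its 95% interval from limma as a line, and a filled point where the adjusted p was under 0.05. *CRC1*, *FOX2* and *ACS1* lie above 1, *ANT1*, *PEX21* and *PEX25* lie lowest, and most PEX genes sit around 0.

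Receptors carry matrix proteins from the cytosol to the organelle. *PEX21*, a co-receptor that helps Pex7p deliver proteins with a type 2 targeting signal, fell from 9.18 and 8.96 to 8.53 and 8.42. Its log FC was -0.59 (SE 0.10, adjusted p = 0.0155), with the strains 0.43 apart. The related co-receptor gene *PEX18* had 9.17 and 9.55 against 9.42 and 9.60, a log FC of 0.15 (interval -0.22 to 0.52, adjusted p = 0.492). The receptor genes themselves differed little between strains. *PEX5*, whose product binds type 1 signals, had 9.06 and 9.20 against 9.23 and 9.15 (log FC 0.06, interval -0.15 to 0.28). *PEX7* had 8.44 and 8.57 against 8.42 and 8.50 (log FC -0.04, interval -0.26 to 0.17). *PEX21* did not pass without replicate 1 (adjusted p = 0.0678) or replicate 2 (0.144) of the mutant, and *PEX18* passed without replicate 2 of 59A (log FC 0.34, adjusted p = 0.0386), with a log FC of -0.04 without replicate 1.

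Docking and RING proteins form the import machinery in the membrane, and 1 of their 6 measured genes rose. That share, 16.7%, was near the 14.6% of all features. *PEX2*, a RING ubiquitin ligase, had 9.58 and 9.68 in 59A and 9.93 and 9.96 in the mutant, a log FC of 0.31 (SE 0.08, adjusted p = 0.0378). *PEX10*, another RING ligase of that complex, had 9.49 and 9.68 against 9.56 and 9.66 (log FC 0.03, interval -0.21 to 0.26). So the strains were apart in *PEX2* and overlapped in *PEX10*. The docking genes *PEX13*, *PEX14* and *PEX17* had log FC of -0.12, 0.01 and -0.12. *PEX8*, which joins the docking and RING complexes, had 7.86 and 7.60 against 7.96 and 8.01 (log FC 0.25, adjusted p = 0.139). *PEX2* did not pass with an intensity trend (adjusted p = 0.0502) or without replicate 1 (0.204) or 2 (0.305) of the mutant, and *PEX8* passed without replicate 1 of 59A (log FC 0.39, adjusted p = 0.0141).

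Receptors are pulled back to the cytosol by the recycling proteins, and 0 of their 4 measured genes passed. Most features did not pass either, 4561 of 6226. *PEX6*, an AAA ATPase, had a log FC of 0.11 and *PEX4*, the ubiquitin-conjugating enzyme, of 0.00. *PEX15*, the membrane anchor of Pex6p, had 9.96 and 10.30 in 59A and 9.81 and 9.85 in the mutant, a log FC of -0.30 (adjusted p = 0.132), the lowest among the PEX genes that did not pass. The wild-type replicates of *PEX15* differed by 0.33, more than the strains. It passed without replicate 1 of 59A (log FC -0.47, adjusted p = 0.00737).

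Membrane formation and peroxisome number were covered by 2 genes each. *PEX3*, the membrane receptor for new membrane proteins, had 8.17 and 8.51 in 59A and 8.69 and 8.76 in the mutant, a log FC of 0.39 (adjusted p = 0.0815), the highest among the PEX genes that did not pass. *PEX19*, the chaperone that Pex3p binds, had 9.98 and 10.24 against 10.05 and 10.11 (log FC -0.03). *PEX25*, which acts in elongation and division of the organelle, fell from 11.12 and 11.33 to 10.69 and 10.68. The mutant replicates of *PEX25* agreed within 0.01, and the log FC was -0.53 (SE 0.09, adjusted p = 0.0172). *PEX11*, the best known proliferation factor and a target of oleate induction, had 9.29 and 9.48 against 9.39 and 9.37, a log FC of 0.00 (interval -0.24 to 0.23). *PEX25* did not pass without replicate 1 (adjusted p = 0.0965) or 2 (0.148) of the mutant, and *PEX3* passed without replicate 2 of 59A (log FC 0.56, adjusted p = 0.00361). Over the 15 PEX genes that did not pass, log FC ran from -0.30 to 0.39, and their 95% intervals from -0.61 to 0.71.

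The wild-type replicates differed in 1 direction in most PEX genes. Replicate 2 of 59A was higher than replicate 1 in 16 of the 18 PEX genes and in 13 of the 18 other members, against 55.3% of all features. The median of replicate 2 minus replicate 1, sign kept, was 0.15 in the PEX genes, 0.03 in the other members and 0.02 over all features. Differences of opposite sign offset each other in such a median, so it does not measure spread. The difference was highest in *PEX22*, *PEX18* and *ECI1*, at 0.45, 0.38 and 0.36, and *ANT1* was as far apart the other way, at -0.36. In the mutant, replicate 2 was higher in 13 of the 18 PEX genes, against 57.4% of all features. The median of the signed difference was 0.04 in the PEX genes and 0.02 over all features. The labels place all samples on array 1, as blocks of that slide, with 59A in blocks 6 and 1 and the mutant in blocks 4 and 7 for replicates 1 and 2, so place on the slide and culture cannot be told apart within a strain.

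**Figure D4:**
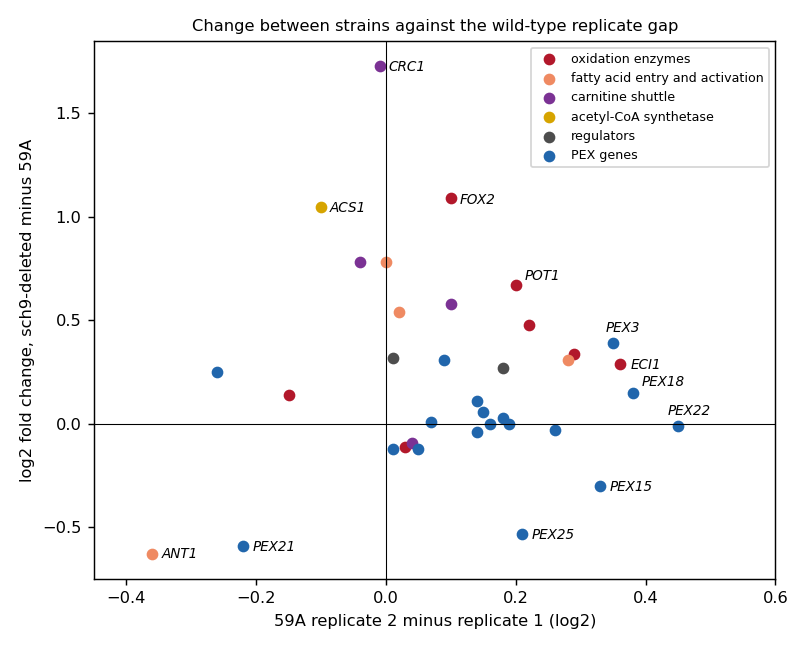
Log2 fold change between the strains (vertical axis) against the difference of 59A replicate 2 minus replicate 1 (horizontal axis, log2) for the 36 genes, coloured by role. *CRC1*, *FOX2* and *ACS1* changed by more than 1 with a replicate gap of at most 0.10, while 16 of the 18 PEX genes lie to the right of 0.

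With an array left out, its strain has a single array that is assumed to vary like the other strain, whose pair alone then gives the spread. Over all features the replicate difference had an SD of 0.236 in 59A and of 0.135 in the mutant. Of the 14 members that passed, 9 did not pass without replicate 1 of the mutant and 11 without replicate 2, and 0 were lost without either of the wild-type arrays. Over all features lower ones went from 753 to 192 and 58 without these mutant arrays, and to 1179 and 1268 without the 59A arrays. *CRC1*, *FOX2* and *ACS1* passed with each of the 4 arrays left out, at log FC from 1.70 to 1.76, from 1.01 to 1.18 and from 1.00 to 1.10. None of the 14 changed sign. Among the members the replicate difference had an SD of 0.082 in the mutant and of 0.182 in 59A. The members' median of replicate 2 minus replicate 1, sign kept, was 0.06 in the mutant and 0.12 in 59A. Over all features this median was 0.02 in each strain.

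**Figure D5:**
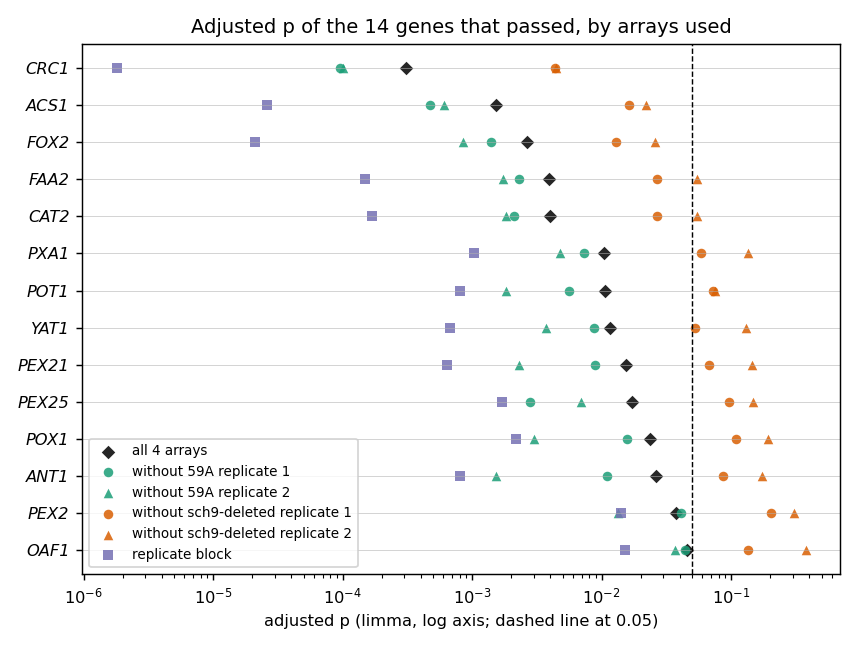
Adjusted p from limma (horizontal log axis, dashed line at 0.05) of the 14 genes that passed, with all 4 arrays, with each array left out and with a replicate block. *CRC1*, *ACS1* and *FOX2* stay left of the line in every case, and 11 genes cross it when mutant replicate 2 is left out.

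Genes with related roles outside the rule were measured as well. Of the other peroxisomal genes listed, *LPX1*, *INP1*, *INP2* and *ATG36* matched no array symbol and were not analysed. Of the 14 measured, of peroxisomal metabolism, fission and turnover, 3 rose, 1 fell and 10 did not pass, with a median log FC of 0.01. The higher share was 21.4% and the lower 7.1%, against the 14.6% and 12.1% of all features. *CTA1*, the catalase that removes the peroxide made by Pox1p, had 8.69 and 8.20 in 59A and 10.59 and 10.55 in the mutant, at least 1.86 higher, with a log FC of 2.13 (SE 0.17, adjusted p = 0.002). *GPD1*, a glycerol-3-phosphate dehydrogenase found partly in peroxisomes, had a log FC of 0.75 (adjusted p = 0.0107) and *AAT2*, an aspartate aminotransferase, of 0.46 (adjusted p = 0.0256). *VPS1*, a dynamin-like GTPase of peroxisome fission, fell by 0.35 (adjusted p = 0.0375). The cystathionine beta-lyase gene *STR3* lay at the threshold, with a log FC of 0.40 (adjusted p = 0.0508), and passed in 8 of 15 alternatives. *NPY1*, an NADH diphosphatase, had -0.29 (adjusted p = 0.0579), and the nicotinamidase gene *PNC1* had 0.37 (adjusted p = 0.106). *NPY1* passed without replicate 1 of 59A (adjusted p = 0.0157) and *PNC1* without replicate 2 (0.0114). Other fission genes, *DNM1* and *FIS1*, had log FC of -0.05 and -0.12. Enzymes of the peroxisomal redox and glyoxylate reactions, *MDH3*, *IDP3* and *CIT2*, had -0.15, 0.10 and -0.04. Without replicate 1 or 2 of the mutant *AAT2* (adjusted p = 0.133 and 0.185) and *VPS1* (0.17 and 0.289) did not pass, nor did *GPD1* without replicate 2 (0.0836), and *MDH3* passed without replicate 1 of 59A (log FC -0.29, adjusted p = 0.04).

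All 4 measured genes of a list of carbon source regulators rose, against 14.6% of all features. The list was drawn up with earlier results of these data known, and *OAF3*, also on it, matched no array symbol. *ADR1*, an activator of peroxisomal and other glucose-repressed genes, had 7.78 and 7.81 in 59A and 8.72 and 8.90 in the mutant, a log FC of 1.01 (SE 0.09, adjusted p = 0.00272). *CAT8*, an activator of gluconeogenic genes, had 8.20 and 8.35 against 9.23 and 9.26, a log FC of 0.97 (SE 0.08, adjusted p = 0.00269). The kinase gene *SNF1*, which acts in glucose derepression, and the repressor gene *MIG1* had smaller values, 0.34 (adjusted p = 0.0472) and 0.33 (adjusted p = 0.0365). *ADR1* and *CAT8* passed with each array left out, whereas *SNF1* did not pass without replicate 1 of 59A (adjusted p = 0.058), with median centring (0.0545), with an intensity trend (0.0556) or without either mutant array (0.157 and 0.345), and *MIG1* not without either mutant array (0.178 and 0.295).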

How the data were processed

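Total RNA was labelled with Cy3 by the authors, hybridised to one-colour Agilent yeast arrays and read with GenePix. The deposited values are log2 intensities, 1 per probe, quantile-normalised by the authors in limma (R 2.14.2 in the submitters' processing notes). The log2 scale was taken from the range of the values. How background and replicate spots were handled before deposit is not stated, and the values were used unchanged.

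Of 6227 probes 4061 had 1 gene symbol, 0 had several and 2166 had none. Names were matched through RefSeq, assembly R64, used for names and neighbours only. Averaging probes that share a symbol gave 6226 features. The contrast was fitted with lmFit and eBayes of limma 3.58.1 in R 4.3.3 over all features. Benjamini-Hochberg adjustment was used, and the prior degrees of freedom were 3.29. The fit was run on simulated data with independent noise of equal spread in both strains. Those data cannot show how calls behave with the unequal spread and correlated replicate differences of the real arrays. An exact permutation test of 2 arrays against 2 cannot go below p = 0.333, so p-values rest on the spread pooled over genes. The labels name biological replicates without saying that cultures were independent otherwise.

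Members and lists were chosen with earlier results of these data known. The rule for named genes took every member that passed, all oxidation, carnitine shuttle and regulator genes, the PEX genes with the lowest and highest log FC among those that did not pass, the related genes that passed, and *SCH9*. *PXA2*, *PCS60* and the other PEX and related genes were named after their values were seen, to account for the members. Planned looks at promoters and protein ends were not run. Alternatives were the fold threshold, unadjusted p, treat against a log FC of 0.5, quantile normalisation again, 75th percentile scaling, median centring, a filter on the lowest 0.25 of the features, an intensity trend, robust hyperparameters, the brightest probe, the replicate number as a block and each array left out. Plots were drawn with matplotlib 3.10.9.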

Additional observations from a re-analysis of the deposited data

How the results depend on the processing

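Of the 14 members that passed, 3 (*CRC1*, *FOX2* and *ACS1*) passed under all 15 alternatives and 0 changed direction in any. With a log FC beyond 1 required, or with treat against 0.5, 3 members were higher and 0 lower, with 1 oxidation enzyme, 1 carnitine shuttle gene and 0 PEX genes higher and 0 PEX genes lower. Over all features the former gave 136 higher and 102 lower, the latter 136 and 34. At unadjusted p 15 members, 2 PEX genes and 1313 features were higher, and 3 members, 2 PEX genes and 1307 features were lower, and with an intensity trend 0 PEX genes were higher. With each array left out, 3 to 17 members were higher and 0 to 4 lower, with 1 to 5 oxidation enzymes, 1 to 3 shuttle genes and 0 to 3 PEX genes higher and 0 to 3 PEX genes lower, while 179 to 1313 features were higher and 58 to 1268 lower. Without either mutant array, when the 59A pair alone gave the spread, fewer features and members were higher and lower, and without either 59A array more features were higher and lower. The cause was not tested. The count of members above a log FC of 1 was 3 in each case.

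Strains shared replicate numbers 1 and 2. Replicate differences of the strains correlated at 0.531 across features, which are not independent replicates, and 2 pairs do not settle whether the numbers pair the cultures. With the replicate block 16 members, 5 oxidation enzymes, 2 PEX genes and 1238 features were higher, and 4 members, 3 PEX genes and 1311 features were lower. The members gained were *TES1* (adjusted p = 0.0116), *ECI1* (0.0326), *PXA2* (0.0201), *PIP2* (0.0254), *PEX3* (0.0103) and *PEX15* (0.0334), and among related genes *STR3* (0.0056), *NPY1* (0.0235) and *PNC1* (0.00722) passed as well. *DCI1* and *SPS19* fell among the lowest 0.25 of the features, and the filter left 34 members with 11 higher and 3 lower. For 11 PEX names no probe was analysed here.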
